A study of Mus musculus with 4 samples.

Results

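Serum amyloid A and other epithelial genes that respond to microbes were examined in the small intestine (SI) of irradiated p53+/+ and p53-/- mice. The members are 10 genes chosen by their symbol in the count table (Saa1, Saa2, Saa3, Lcn2, Nos2, Duox2, Duoxa2, Dmbt1, Il22ra1 and Retnlb), of 56748 genes listed, and all 10 had enough counts to be among the 16094 genes tested. Whole SI tissue was taken at day 1 after 12 Gy total-body irradiation (TBI) from p53+/+ (wild-type, WT) mice and from p53-/- mice, which lack p53 in every tissue because the deletion is in the germline. There were 2 libraries of each genotype, named here by the numbers in the deposited table as 7 and 8 (p53+/+) and 9 and 10 (p53-/-). All 4 came from irradiated mice, so the values compare genotypes after irradiation and hold no unirradiated level, and the labels give neither the age nor the sex of the animals.

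Serum amyloid A proteins are acute-phase apolipoproteins that bind retinol and bacterial membrane proteins, and epithelial cells of the distal SI make them when bacteria attach to the epithelium. Interleukin-22 (IL-22), secreted mainly by group 3 innate lymphoid cells and T cells, acts on epithelial cells through the receptor subunit Il22ra1 and the transcription factor STAT3, and induces antimicrobial lectins, serum amyloids and Lcn2. Lcn2 withholds iron from bacteria by binding their siderophores, Dmbt1 is a secreted scavenger-receptor glycoprotein that binds bacteria, Nos2 makes nitric oxide, and the Duox2 oxidase, with its maturation factor Duoxa2, releases hydrogen peroxide at the apical surface.

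The serum amyloid genes are near copies of each other, so their sequences are shown to make clear what the counts can tell apart. The coding sequences of Saa1 and Saa2 are both 369 bases long and are identical at 95.1% of positions, with 18 differences, while Saa1 and Saa3 are identical at 79.2% of the aligned positions. The stretch below is coding bases 60 to 149 of Saa1 and Saa2 and the part of Saa3 aligned to it (64 to 149), from GENCODE M21 transcripts, 5′ to 3′. Capitals mark the 11 bases at which Saa1 and Saa2 differ, and in Saa3 the bases that differ from Saa1.
Saa1: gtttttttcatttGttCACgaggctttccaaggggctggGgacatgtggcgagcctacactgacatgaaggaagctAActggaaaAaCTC
Saa2: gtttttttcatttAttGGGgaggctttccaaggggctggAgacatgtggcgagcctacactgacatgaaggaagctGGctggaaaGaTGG
Saa3: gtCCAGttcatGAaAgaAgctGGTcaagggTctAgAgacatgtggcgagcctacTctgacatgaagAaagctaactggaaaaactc
Of all runs of 50 bases in the Saa1 transcript, 13.2% also occur in Saa2, and 8.46% of those of Saa2 occur in Saa1. Reads from these runs could have been counted for either gene or dropped, so the counts of Saa1 and Saa2 are uncertain in that part.

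Windows around the transcription start sites are shown next for the serum amyloids, Lcn2 and the pair of Duox2 and Duoxa2, of which Duoxa2 passed the test described below, so that the near copies and the neighbouring genes can be compared (250 bases before to 50 after each start, RefSeq, GRCm38.p6, 5′ to 3′ on the strand of the gene). Windows matched for 7 of the 10 members, and Nos2, Dmbt1 and Retnlb had none. Capitals mark matches to the motifs searched, which were NF-kB (GGG and TTTCC with any 2 bases between), STAT (TTCNNNGAA) and C/EBP (TTGCNNAA) on both strands, and the TATA box (TATAAA) on the strand of the gene.
Saa1 chr7:46742931-46743230 (minus strand): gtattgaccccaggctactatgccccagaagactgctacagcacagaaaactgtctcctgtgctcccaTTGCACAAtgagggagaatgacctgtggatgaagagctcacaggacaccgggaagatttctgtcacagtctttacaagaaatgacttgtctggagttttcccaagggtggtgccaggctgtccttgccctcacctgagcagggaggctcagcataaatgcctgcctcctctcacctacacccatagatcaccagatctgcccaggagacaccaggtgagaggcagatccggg
Saa2 chr7:46751583-46751882 (plus strand): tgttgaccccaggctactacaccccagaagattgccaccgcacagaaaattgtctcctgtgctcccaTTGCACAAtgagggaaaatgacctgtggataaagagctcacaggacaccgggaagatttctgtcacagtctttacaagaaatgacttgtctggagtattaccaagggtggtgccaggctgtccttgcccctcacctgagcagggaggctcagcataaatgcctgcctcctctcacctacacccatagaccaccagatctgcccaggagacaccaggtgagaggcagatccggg
Saa3 chr7:46715627-46715926 (minus strand): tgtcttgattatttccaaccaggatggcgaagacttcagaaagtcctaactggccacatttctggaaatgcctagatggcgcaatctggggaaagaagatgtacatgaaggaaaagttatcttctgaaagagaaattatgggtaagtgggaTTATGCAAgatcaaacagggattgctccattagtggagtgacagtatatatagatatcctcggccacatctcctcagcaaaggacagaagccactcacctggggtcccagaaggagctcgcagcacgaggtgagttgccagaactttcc
Lcn2 chr2:32387690-32387989 (minus strand): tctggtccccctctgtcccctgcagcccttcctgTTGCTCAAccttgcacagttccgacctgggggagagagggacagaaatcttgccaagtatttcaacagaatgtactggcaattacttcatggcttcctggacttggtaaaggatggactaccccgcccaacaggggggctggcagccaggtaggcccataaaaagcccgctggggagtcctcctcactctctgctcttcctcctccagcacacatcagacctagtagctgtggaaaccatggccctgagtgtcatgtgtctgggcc
Duox2 chr2:122298178-122298477 (minus strand): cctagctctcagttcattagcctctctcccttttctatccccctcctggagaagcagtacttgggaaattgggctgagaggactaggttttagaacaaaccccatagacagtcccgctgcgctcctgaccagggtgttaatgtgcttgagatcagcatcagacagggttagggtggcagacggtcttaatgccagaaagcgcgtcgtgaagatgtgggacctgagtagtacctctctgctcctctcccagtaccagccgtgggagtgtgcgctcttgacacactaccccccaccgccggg
Duoxa2 chr2:122298650-122298949 (plus strand): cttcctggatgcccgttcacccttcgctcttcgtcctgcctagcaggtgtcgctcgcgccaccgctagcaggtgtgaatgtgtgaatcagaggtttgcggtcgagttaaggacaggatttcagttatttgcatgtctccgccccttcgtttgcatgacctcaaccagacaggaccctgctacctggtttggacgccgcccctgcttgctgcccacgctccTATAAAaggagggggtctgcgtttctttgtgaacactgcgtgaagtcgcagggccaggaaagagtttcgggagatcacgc
A C/EBP match was present in the windows of Saa1, Saa2, Saa3 and Lcn2, and in 10.8% of the 32851 windows of the reference table. It lay at 182 to 175 bases before the start in Saa1 and at 183 to 176 in Saa2 with the same letters (TTGCACAA), at 216 to 209 in Lcn2 (TTGCTCAA), and at 99 to 92 in Saa3, where it reads on the opposite strand (TTATGCAA as printed). Duoxa2 held a TATA box at 30 to 25 bases before its start, a motif of 8.32% of all windows. The other motifs searched had no match in the 7 windows, in a reference where NF-kB was found in 1.63% and STAT in 8.30% of windows, and no match overlapped another. The windows of Saa1 and Saa2 were identical at 96% of 299 aligned positions, against 73.7% for Saa1 and Saa3. Duox2 and Duoxa2 lie head to head on opposite strands, with their starts 673 bases apart, and no C/EBP match was found in either.

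The label of genotype was checked on Trp53 (ENSMUSG00000059552), the gene of p53, which was at 57.7 and 47.1 CPM (counts relative to the library size, scaled between libraries by TMM) in p53+/+ SI and at 19.8 and 22.5 CPM in p53-/- SI. The genotypes did not overlap, and its log2 fold change of -1.31 had an adjusted p of 0.0602 in edgeR's quasi-likelihood test, Benjamini-Hochberg adjusted. Phlda3, a p53 target, was at 89.6 ± 3.26 CPM in p53+/+ and at 1.74 ± 0.273 CPM in p53-/- (mean ± SD, n = 2). Libraries held between 15005479 and 22173164 counts. Library 10 stood apart from the other libraries, with 4.59% of its counts on the ribosomal RNA gene Rn18s-rs5 (0.296% to 0.863% in the others), 894 counts of the follicle and B cell gene Cr2 (at most 10 in the others) and 588 counts of Xist (at most 4 in the others). Calls and counts that change without library 10 are given both ways below. Wherever a library is left out, the lone library of its genotype is assumed to vary like those of the other genotype.

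Of the 10 members, 8 had higher values in both p53-/- libraries than in either p53+/+ library, and the secreted glycoprotein Dmbt1 and the oxidase maturation factor Duoxa2 passed the test. They took 0.0616% and 0.0847% of all counts in libraries 7 and 8 (p53+/+) and 0.556% and 0.377% in libraries 9 and 10 (p53-/-). Dmbt1 and Duoxa2 rose past an adjusted p of 0.05 (2 of 10 members and 0 lower), where 0.298% of all genes tested were higher past this threshold (edgeR's quasi-likelihood test, Benjamini-Hochberg adjusted). At an unadjusted p under 0.05, 8 of 10 members were higher, against 10% of all genes tested, and in the same 8 libraries 9 and 10 (p53-/-) both lay above libraries 7 and 8, as they did for 26.4% of all genes tested. Il22ra1 and Retnlb were the members whose genotypes overlapped. The median log2 fold change of the members was 3.11, or 2.54 with Saa2 at its lower bound (see its values), beside -0.01 for all genes tested. With 2 mice a genotype, an exact permutation test of one gene cannot go below p = 0.333 (two-sided), so that single genes were tested in the fit across all genes. DESeq2 gave an adjusted p to 8 members (none to Saa2 and Retnlb) and called 6 of them higher (Dmbt1, Duox2, Nos2, Duoxa2, Lcn2 and Saa3), where it called 5.47% of 14845 genes higher. Without library 10, no member and no other gene passed the adjusted threshold in either direction in edgeR's test, while 8 members, and 767 of all genes, were higher at an unadjusted p under 0.05, and the median of the members was 3.16. Fewer cells of a type and less RNA per cell cannot be told apart in these whole-tissue samples.

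**Figure D1:**
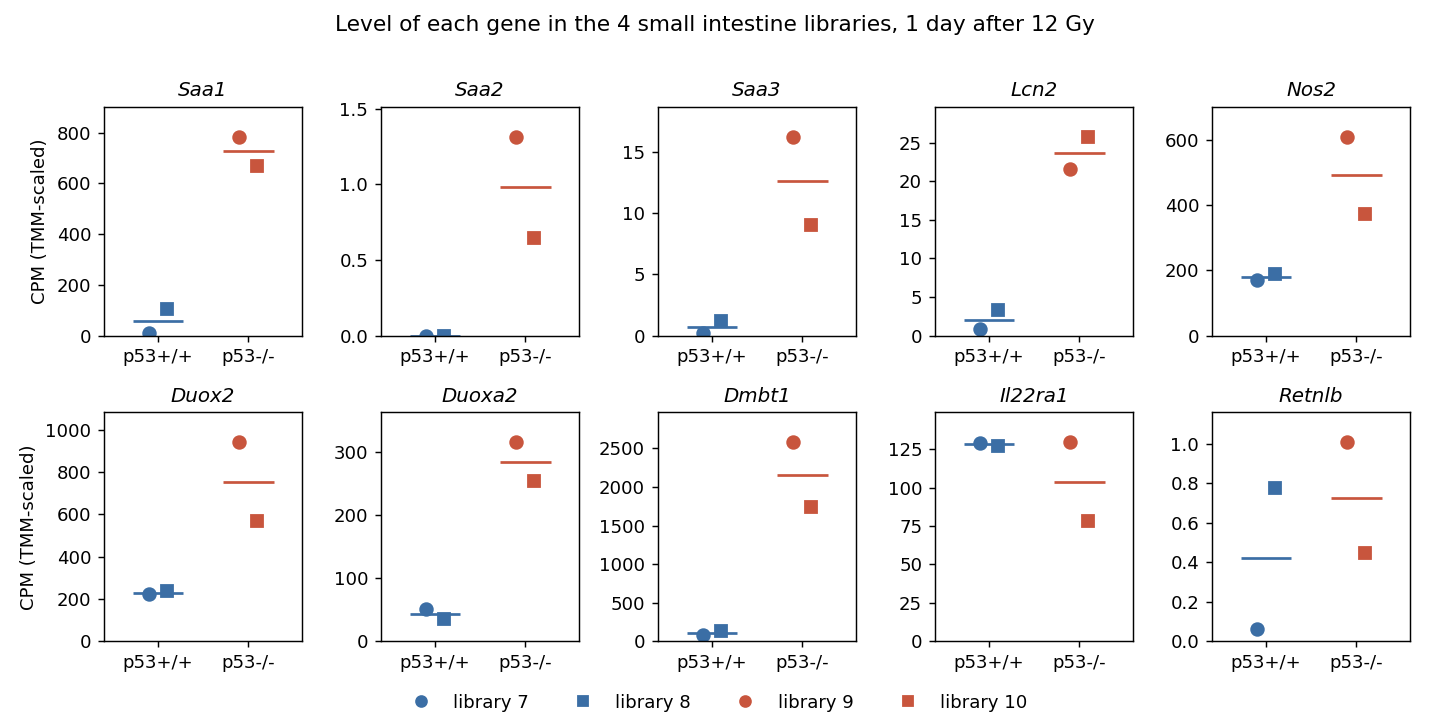
Level of each of the 10 genes (vertical axis, CPM scaled by TMM, each panel with its own linear axis from 0) in the p53+/+ libraries 7 and 8 and the p53-/- libraries 9 and 10; points are libraries and bars are means of 2. In every panel but those of Il22ra1 and Retnlb, both p53-/- points lie above both p53+/+ points.

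The serum amyloids differed in how much the p53+/+ mice varied. Saa1 (ENSMUSG00000074115) was at 8.42 CPM in library 7 and 104 CPM in library 8, and at 784 and 667 CPM in libraries 9 and 10. Both p53-/- libraries were high and close to each other, and the p53+/+ libraries were lower and far apart, with library 8 above library 7 by 12.4-fold. The mean was 56.4 ± 67.8 CPM in p53+/+ and 725 ± 82.6 CPM in p53-/- (SD, n = 2), a 12.9-fold difference that is about as large as the one between the p53+/+ mice. Its log2 fold change of 3.69 (SE, its standard error, 1.10) did not pass the threshold (unadjusted p = 0.0179, adjusted p = 0.186, edgeR's quasi-likelihood test, Benjamini-Hochberg adjusted). Leaving out either p53+/+ library brought it past the threshold, with a log2 fold change of 2.81 (adjusted p = 0.0165) without library 7 and 6.42 (adjusted p = 0.00272) without library 8, and over all alternatives the adjusted p ran from 1.05e-35 to 0.677.

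Saa3 (ENSMUSG00000040026), the serum amyloid made by epithelium, macrophages and fat rather than by liver alone, had the same order of libraries at a lower level. It was at 0.186 and 1.23 CPM in p53+/+ (3 and 19 counts) and at 16.2 and 9.0 CPM in p53-/- (370 and 181 counts). The genotypes were apart by more than the spread within either, although library 8 was again above library 7, by 6.64-fold. The difference was 17.8-fold, with a log2 fold change of 4.15 (SE 0.865, adjusted p = 0.112 in edgeR's quasi-likelihood test, Benjamini-Hochberg adjusted). Without library 7 the adjusted p was 0.0283 (log2 fold change 3.36) and without library 8 it was 0.0112 (6.03), in a range of 3.04e-13 to 0.544 over the alternatives. Saa2 (ENSMUSG00000057465) was near the limit of detection, with 0 counts in both p53+/+ libraries and 30 and 13 counts (1.31 and 0.647 CPM) in p53-/-. It was at least 5.16-fold higher in p53-/- SI, a bound computed with 3 counts in each p53+/+ library that covers counting error only (unadjusted p = 0.00586, adjusted p = 0.128, same edgeR test). For each 100 counts of Saa1, Saa2 had 0.168 and 0.0970 counts in the p53-/- libraries, although their start windows are nearly the same. Saa3 had 2.21, 1.18, 2.07 and 1.35 counts for each 100 of Saa1 in libraries 7, 8, 9 and 10, so that this proportion did not separate the genotypes while both genes were higher. Saa4, the constitutive serum amyloid, had at most 2 counts in any library.

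Among the secreted antimicrobial proteins, Dmbt1 (ENSMUSG00000047517) had the largest change of the 2 members that passed the test. It was at 79.9 and 128 CPM in p53+/+ and at 2580 and 1734 CPM in p53-/-. All 4 libraries were far above the detection limit, and the lowest p53-/- library was well above the highest p53+/+ library. Dmbt1 rose 20.8-fold, from 104 ± 33.8 to 2157 ± 598 CPM (SD, n = 2), with a log2 fold change of 4.38 (SE 0.408, adjusted p = 0.0296 in edgeR's quasi-likelihood test, Benjamini-Hochberg adjusted). Of all genes tested, 0.913% had a log2 fold change at least as large. The call was lost without library 10 (log2 fold change 4.68, adjusted p = 0.189) and with library sizes left unscaled (adjusted p = 0.0544), in a range of 6.94e-40 to 0.189 over the alternatives, while the log2 fold change stayed between 4.06 and 4.75. Lcn2 (ENSMUSG00000026822) was at 0.866 and 3.31 CPM in p53+/+ and at 21.6 and 25.8 CPM in p53-/-. It was the member among those not overlapping in which library 10 was above library 9, and library 8 was above library 7 by 3.82-fold, as for the serum amyloids. Its difference was 11.3-fold, with a log2 fold change of 3.50 (SE 0.634, adjusted p = 0.0950, same edgeR test). Without library 7 or without library 8 the adjusted p was 0.0153 (log2 fold change 2.84) and 0.00486 (4.76), in a range of 4.85e-17 to 0.571 over the alternatives. Retnlb (ENSMUSG00000022650), which encodes the goblet cell protein RELM-beta, had 1 and 12 counts in p53+/+ and 23 and 9 in p53-/-. The genotypes overlapped at this low level (0.0619 to 0.779 against 0.448 to 1.01 CPM), its log2 fold change of 0.80 had an SE of 1.10 (adjusted p = 0.771, same edgeR test), and it was -0.077 without library 7 and 3.43 without library 8 (adjusted p = 0.980 and 0.242, in a range of 0.242 to 0.989 over the alternatives).

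Of the oxidase pair, Duoxa2 passed the test and Duox2 did not. Duoxa2 (ENSMUSG00000027225) was at 51.5 and 35.4 CPM in p53+/+ and at 316 and 254 CPM in p53-/-. The libraries of each genotype were close to each other and the genotypes far apart. Duoxa2 rose 6.57-fold, from 43.5 ± 11.4 to 285 ± 43.7 CPM (SD, n = 2), with a log2 fold change of 2.71 (SE 0.264, adjusted p = 0.0352 in edgeR's quasi-likelihood test, Benjamini-Hochberg adjusted). The call was lost without library 9 (log2 fold change 2.54, adjusted p = 0.0570) and without library 10 (2.92, adjusted p = 0.189), in a range of 7.48e-28 to 0.189 over the alternatives. Duox2 (ENSMUSG00000068452), its partner, was at 224 and 236 CPM in p53+/+ and at 941 and 569 CPM in p53-/-. The p53+/+ libraries were nearly equal and the p53-/- libraries, though both higher, differed from each other by 1.65-fold. The difference was 3.28-fold, with a log2 fold change of 1.72 (SE 0.303, adjusted p = 0.0914, same edgeR test). Counted within each library, which needs no scaling, Duoxa2 had 23.0 and 15.0 counts for each 100 of Duox2 in p53+/+ and 33.6 and 44.7 in p53-/-. The proportion of the maturation factor to the oxidase was thus higher in both p53-/- libraries, a difference that was not tested.

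Nos2 (ENSMUSG00000020826), the inducible nitric oxide synthase, had a pattern close to that of Duox2. It was at 171 and 189 CPM in p53+/+ and at 609 and 373 CPM in p53-/-. As with Duox2, the p53+/+ libraries were close and library 9 was the highest, 1.63-fold above library 10. The mean was 180 ± 12.5 CPM in p53+/+ and 491 ± 167 CPM in p53-/- (SD, n = 2), a 2.73-fold difference with a log2 fold change of 1.45 (SE 0.291, adjusted p = 0.106 in edgeR's quasi-likelihood test, Benjamini-Hochberg adjusted). Without library 10 the log2 fold change was 1.81 for Nos2 and 2.08 for Duox2, with an adjusted p of 0.306 for both (ranges over the alternatives 2.64e-07 to 0.306 and 8.12e-09 to 0.306). Nos2 had 76.6 and 79.9 counts for each 100 of Duox2 in p53+/+ and 64.7 and 65.4 in p53-/-. Il22ra1 (ENSMUSG00000037157), the receptor through which epithelium senses IL-22, lacked the higher values of most members in both p53-/- libraries, as did Retnlb. It was at 129 and 127 CPM in p53+/+ and at 130 and 78.2 CPM in p53-/-. Library 9 was level with the p53+/+ libraries and library 10 was below them, so the genotypes overlapped. Its log2 fold change was -0.30 (SE 0.267, adjusted p = 0.628, same edgeR test), and 0.069 without library 10 (adjusted p = 0.984, in a range of 0.40 to 0.984 over the alternatives).

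**Figure D2:**
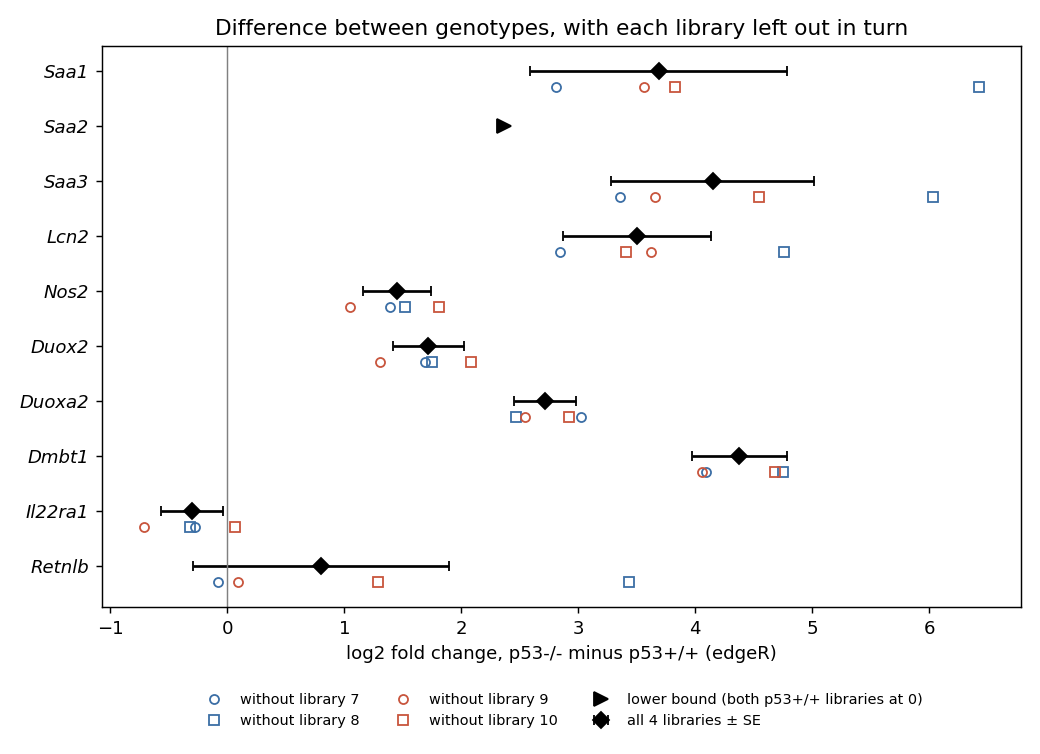
Log2 fold change of each gene (horizontal axis, p53-/- minus p53+/+, edgeR), with diamonds for all 4 libraries ± the standard error and open symbols for the fit with 1 library left out; for Saa2, with 0 counts in both p53+/+ libraries, the triangle is the lower bound of its difference. The values of Dmbt1 stayed between 4.06 and 4.75 and those of Duoxa2 between 2.46 and 3.02, whereas Saa1 ran from 2.81 without library 7 to 6.42 without library 8.

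Levels were compared between members only after division by length, as CPM per kilobase of the longest protein-coding transcript. In p53-/- SI the order of this level was Saa1 (1191 ± 136), Dmbt1 (344 ± 95.4), Duoxa2 (179 ± 27.4), Duox2 (124 ± 43.0), Nos2 (117 ± 39.9), Il22ra1 (40.4 ± 14.1), Lcn2 (25.9 ± 3.21), Saa3 (5.73 ± 2.32), Saa2 (1.5 ± 0.725) and Retnlb (1.05 ± 0.569), each mean ± SD of n = 2. Duox2 and Nos2 overlapped in this order, as did Saa2 and Retnlb, and other neighbours did not overlap between libraries. In p53+/+ SI the level of Saa1 ran from 13.8 in library 7 to 171 in library 8, a span that takes in those of Il22ra1 (49.9 ± 0.530), Nos2 (42.9 ± 2.99), Duox2 (37.6 ± 1.47), Duoxa2 (27.3 ± 7.13) and, in part, Dmbt1 (16.5 ± 5.39 CPM per kilobase). Lcn2, Retnlb and Saa3 followed at 2.28 ± 1.89, 0.604 ± 0.728 and 0.322 ± 0.337 CPM per kilobase, with Retnlb overlapping both of its neighbours. The first place of Saa1 in p53-/- depends on the length used: by the union of all annotated exons (2478 rather than 609 bases) it came after Dmbt1.

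Similarity of pattern was measured as the root mean square difference of centred log2 CPM over the 4 libraries, a description over few points that share their depth. Among members, Nos2 and Duox2 were closest (0.135 on the log2 scale). Saa2 and Retnlb are left out of this comparison, since libraries at or near 0 counts take their place from the prior count of 2 and not from a measured level. Saa3, with 3 counts in library 7, also depends in part on the prior count. Its distances to Lcn2 (0.503) and Saa1 (0.569) are therefore not ranked. Of all genes tested with a mean of at least 1 CPM, the closest to Duox2 was Zc3h12a (0.0941), which encodes the RNase regnase-1, the closest to Duoxa2 was the membrane mucin gene Muc4 (0.0786), and the closest to Nos2 was the transglutaminase gene Tgm2 (0.0603). Lcn2 was closest to Cd274 (0.102), which encodes PD-L1. Segments of immunoglobulin genes were closest to Saa1 (Igkv8-27, 0.262) and Saa3 (Ighv1-82, 0.214), at larger distances, and Dmbt1 was closest to Ifit1bl1 (0.204). Tjp1, a tight junction gene, was closest to Il22ra1 (0.0340).

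Genes of the cytokine axis known to induce several members included ligands near 0 counts. Of 21 genes of the IL-22 and IL-17 axis, 15 were tested and 0 passed the adjusted threshold (edgeR's quasi-likelihood test), while 5 were higher (Il17a, Il1b, Il12rb1, Ahr and Socs3) and 1 lower (Il10rb) at an unadjusted p under 0.05. The median log2 fold change of the list was 0.12, close to that of all genes. Il22 had 0, 0, 2 and 4 counts in libraries 7 to 10, a level at which no difference was detectable at this depth. Il17a, a cytokine of T cells and innate lymphoid cells, had 0 counts in both p53+/+ libraries and 17 and 16 in p53-/-, at least 4.05-fold higher (adjusted p = 0.126, edgeR's quasi-likelihood test, Benjamini-Hochberg adjusted). Il23a had at most 3 counts and Il6 at most 2 in any library. Stat3, through which IL-22 signals, was at 192 and 205 CPM in p53+/+ and 226 and 207 CPM in p53-/-, and Il17rc was at 215 and 186 against 172 and 158 CPM. Socs3, a feedback inhibitor that STAT3 induces, was at 92.7 and 41.5 against 120 and 156 CPM, and Il10rb, the other subunit of the IL-22 receptor, at 87.9 and 66.2 against 52.2 and 47.7 CPM. Genes of this axis other than Stat3 and Il17rc were named after their values were seen. Without library 10, 0 of these 15 genes had an unadjusted p under 0.05.

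Other epithelial microbe-response genes lay on the side of the members. Of 25, 24 were tested, 0 passed the adjusted threshold (edgeR's quasi-likelihood test), 17 were higher and 1 (Hp) lower at an unadjusted p under 0.05, and in 21 the lower of the p53-/- values was above the higher of the p53+/+ values. The median log2 fold change was 1.80, and 1.94 without library 10, where 10 were higher at an unadjusted p under 0.05. Reg3b, an antimicrobial C-type lectin, was at 4170 and 5958 CPM in p53+/+ and 16706 and 18465 CPM in p53-/- (log2 fold change 1.80, adjusted p = 0.148, edgeR's quasi-likelihood test, Benjamini-Hochberg adjusted). Reg3g, its close relative, was at 1873 and 3357 against 11564 and 13062 CPM (2.24, adjusted p = 0.113, same edgeR test). In both lectins, as in the serum amyloids and Lcn2, library 8 was above library 7.

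The enzymes that make reactive oxygen were tested as a list of 17 oxidase and nitric oxide partners, of which 16 were tested. Nox1 rose past the threshold and 0 fell, and at an unadjusted p under 0.05, 9 were higher and 1 (Arg2) lower, with a median log2 fold change of 1.03. Nox1, the epithelial superoxide-producing oxidase, was at 7.05 and 7.07 CPM in p53+/+ and at 57.4 and 43.6 CPM in p53-/-. It was thus nearly equal in the p53+/+ mice and higher in both p53-/- mice, with a log2 fold change of 2.84 (adjusted p = 0.0271, edgeR's quasi-likelihood test, Benjamini-Hochberg adjusted). Without library 10, 5 genes of this list were higher at an unadjusted p under 0.05 and 0 passed the adjusted threshold. Of 8 paralogs of members, 4 were tested and 0 passed the adjusted threshold, with 1 higher (Duoxa1) and 1 lower (Retn) at an unadjusted p under 0.05, and a median of -0.64. Duoxa1, the maturation factor of Duox1, was at 1.18 and 0.324 CPM in p53+/+ and at 4.65 and 4.48 CPM in p53-/- (log2 fold change 2.59, adjusted p = 0.159, same edgeR test), while Duox1 itself had at most 15 counts in a library. Nos1 was at 1.36 and 9.60 CPM in p53+/+ and at 2.63 and 2.14 CPM in p53-/-.

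Receptors and adaptors that sense microbes were a list of 19, all tested. Tlr2, the receptor for bacterial lipoproteins, rose past the threshold and 0 fell, and at an unadjusted p under 0.05, 10 were higher and 1 (Ticam1) lower. Tlr2 was at 2.78 and 2.85 CPM in p53+/+ and at 21.6 and 15.9 CPM in p53-/-, with a log2 fold change of 2.73 (adjusted p = 0.0494, edgeR's quasi-likelihood test, Benjamini-Hochberg adjusted). Of the 19, 14 had positive log2 fold changes, and the median was 0.83, against 0.91 without library 10, where 3 were higher at an unadjusted p under 0.05 and 0 passed the adjusted threshold.

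**Figure D3:**
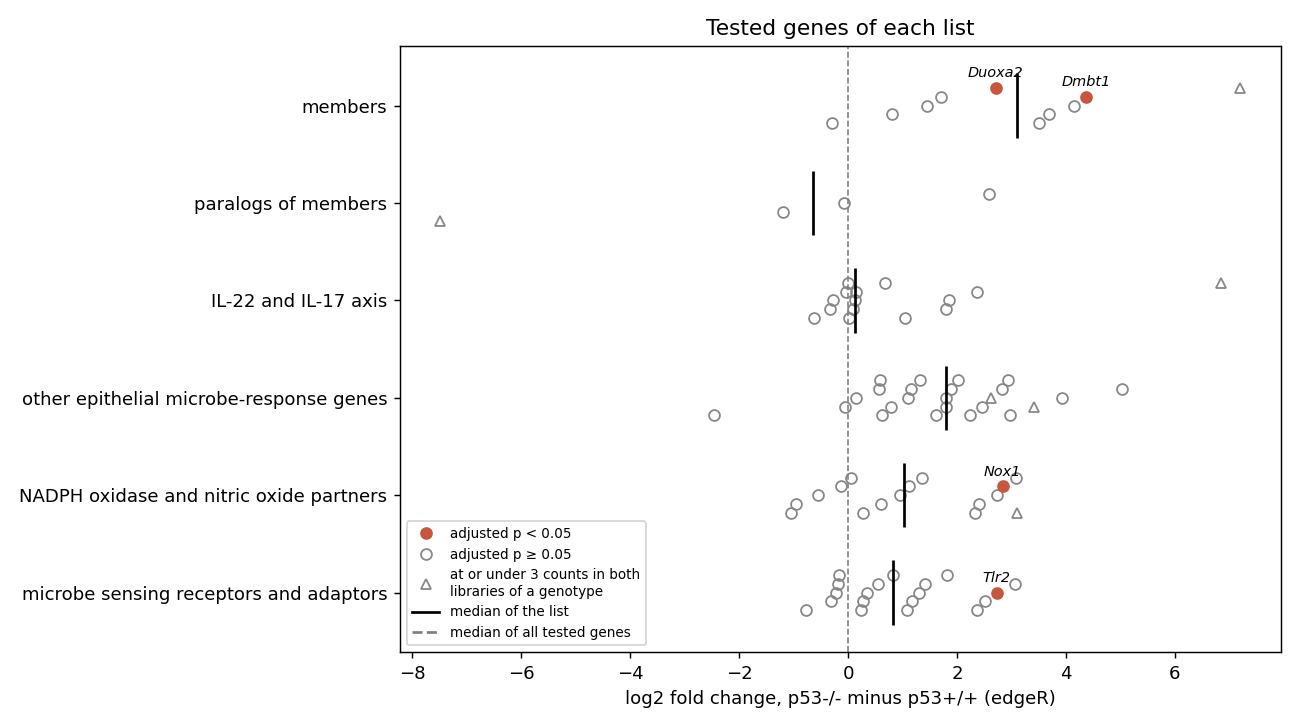
Log2 fold change (horizontal axis, p53-/- minus p53+/+, edgeR) of every tested gene of the member list and of 5 related lists, with filled red circles for genes past an adjusted p of 0.05, triangles for genes with no more than 3 counts in either library of a genotype (their fitted position depends on the prior count), a bar for the median of each list and a dashed line for the median of all genes tested. Dmbt1, Duoxa2, Nox1 and Tlr2 are past the threshold, and the medians run from -0.64 for paralogs to 3.11 for members.

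Markers of other cells that make these proteins were read in the same libraries, since neutrophils carry Lcn2, macrophages express Nos2 and Saa3, fat expresses Saa3, and liver makes Saa1 and Saa2. Of 13 neutrophil markers, 4 were tested, 0 passed the adjusted threshold and 2 (Csf3r and S100a9) were higher at an unadjusted p under 0.05 (edgeR's quasi-likelihood test), against 0 without library 10. The summed level of the list was 4.83 and 8.69 CPM in p53+/+ and 11.8 and 13.4 CPM in p53-/-, higher in both p53-/- libraries as Lcn2 was. Most of this sum came from Ltf and Mmp9. Ltf was at 2.97 and 3.44 CPM in p53+/+ and at 5.48 and 6.96 CPM in p53-/-. Mmp9 overlapped between the genotypes, at 1.24 and 3.83 against 1.80 and 2.79 CPM. The neutrophil genes Elane and Ngp had 0 counts in all 4 libraries, and Ly6g had at most 1 and Mpo at most 3 counts. Cxcr2 had 0 counts in both p53+/+ libraries and 11 and 5 in p53-/-, and S100a9 had 0 and 2 against 19 and 13. Camp went the other way, with 1 and 2 counts against 0 and 0. The part of neutrophils in the level of Lcn2 was not tested. The hepatocyte genes Alb and Ahsg had 0 counts in all 4 libraries, and of the 8 genes of that list 3 were tested and 0 passed either threshold. Most of the summed level of the list was Cps1, which SI epithelium also expresses. It was at 347 and 219 CPM in p53+/+ and at 525 and 392 CPM in p53-/-. The fibrinogen gene Fga was also higher, with 0 counts in both p53+/+ libraries and 32 and 9 in p53-/-. Ttr overlapped between the genotypes, at 2.66 and 2.01 CPM in p53+/+ and 2.06 and 2.64 CPM in p53-/-. Without library 10, 2 of 4 tested hepatocyte genes were higher at an unadjusted p under 0.05, and the part of such cells in Saa1 and Saa2 was not tested beyond these values. Fat markers moved the opposite way to Saa3, with 7 of 8 tested, 2 (Car3 and Cfd) falling past the adjusted threshold (0 without library 10, with 7 lower at an unadjusted p under 0.05 in both fits), 0 higher, and a summed level of 155 and 108 CPM in p53+/+ and 22.5 and 19.8 CPM in p53-/-.

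Macrophage and monocyte markers moved with the members. All 11 were tested with positive log2 fold changes (median 1.21), 0 passed the adjusted threshold and 6 were higher at an unadjusted p under 0.05 (2 without library 10). Their summed level was 71.7 and 215 CPM in p53+/+ and 279 and 722 CPM in p53-/-, so that library 8 was above library 7 here too, as for the serum amyloids and Lcn2, and library 10 was the highest. T cell and innate lymphoid cell markers (8 of 11 tested, 7 higher at an unadjusted p under 0.05, 4 without library 10, 0 past the adjusted threshold) summed to 96.5 and 88.3 CPM against 154 and 172 CPM. B cell and follicle markers (8 of 10 tested, all 8 higher at an unadjusted p under 0.05, 4 without library 10, 0 past the adjusted threshold) summed to 20.9 and 16.2 CPM against 48.7 and 580 CPM. The B cell and follicle sum of library 9 was thus above both p53+/+ libraries and below library 10. Every member but Lcn2 was higher in library 9 than in library 10 in CPM. The part of macrophages, T cells and B cells in the levels of the members was not tested.

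Markers of the SI epithelium, where these genes are known to act, differed in direction between differentiated cells and the crypt base. The summed goblet cell level was 18912 and 16160 CPM in p53+/+ and 14252 and 12183 CPM in p53-/- (8 tested, 0 past the adjusted threshold, median log2 fold change -0.28, or -0.0055 without library 10). Enterocyte markers summed to 30707 and 30748 CPM against 25488 and 20388 CPM (12 tested, 0 past the threshold, median -0.49). The 7 ileum markers were all tested with negative log2 fold changes (median -0.98, 0 past the threshold), and summed to 9293 and 5444 CPM against 3636 and 4003 CPM. The 5 stem and crypt base markers were all tested, 0 passed the adjusted threshold and 4 had positive log2 fold changes (median 0.57), and they summed to 6098 and 4005 CPM against 7139 and 8733 CPM. Among them Olfm4, a stem cell gene, was at 47.6 and 16.0 CPM in p53+/+ and at 473 and 525 CPM in p53-/- (log2 fold change 3.97, adjusted p = 0.0587, edgeR's quasi-likelihood test, Benjamini-Hochberg adjusted). Ascl2, of the same list, was lower in p53-/- SI (12.0 and 9.28 against 7.23 and 4.82 CPM). Most of the sum of this list was the lysozyme gene Lyz1, at 5999 and 3929 against 6593 and 8140 CPM. Of 7 proximal SI markers, 6 were tested and 0 passed the adjusted threshold, with 3 higher and 1 lower at an unadjusted p under 0.05 (1 and 1 without library 10) and a median of 1.41. They summed to 198 and 115 CPM against 145 and 133 CPM, with the iron exporter Slc40a1 at 32.4 and 21.2 against 92.0 and 73.8 CPM and Cyp2c65 at 160 and 89.3 against 43.8 and 45.2 CPM. Of 10 colon markers, 5 were tested and 0 passed the adjusted threshold, with 2 higher and 3 lower at an unadjusted p under 0.05 (1 and 0 without library 10), and they summed to 255 and 215 CPM against 300.5 and 274 CPM. The colon genes Hoxd13 and Hoxd12 had 0 counts in all 4 libraries. The share of a segment of the SI in each sample was not recorded, and its part in the levels was not tested.

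**Figure D4:**
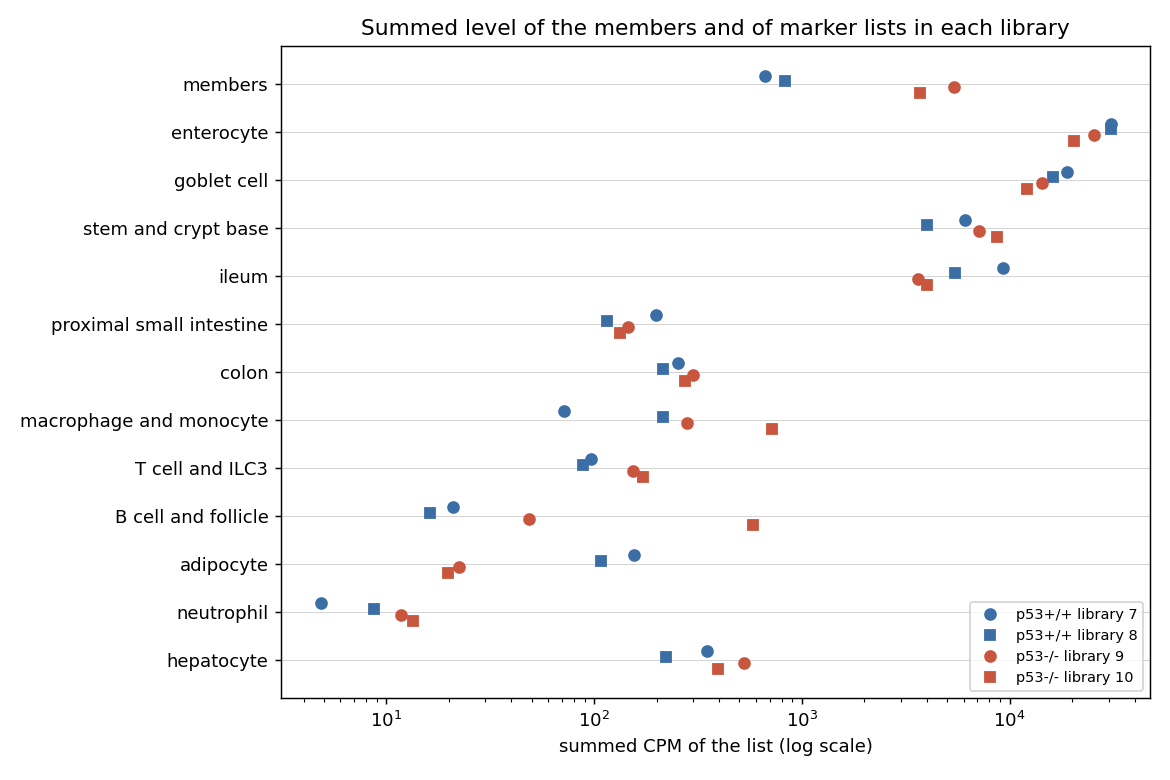
Summed CPM (horizontal axis, log scale) of the 10 members and of marker lists of epithelial and other cells in each of the 4 libraries, blue for p53+/+ and red for p53-/-. The members and the stem, macrophage, T cell, B cell, neutrophil, hepatocyte and colon lists are higher in both p53-/- libraries, the enterocyte, goblet cell, ileum and adipocyte lists are lower in both, and the proximal SI list overlaps. Most of the stem list is Lyz1, and most of the hepatocyte list is Cps1, which SI epithelium also expresses.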

How the data were processed

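Whole-SI RNA was sequenced from poly-A selected libraries. The values the authors deposited are raw counts of reads assigned to genes, not normalized. The submitters' processing notes name fastp, HISAT2 2.0.5, featureCounts 1.5.0-p3 and DESeq2 1.20.0, and the genome build and strand setting are not given in the sources used here. Column names carry the genotype but no replicate number of the labels. The paper describes its data points as biological replicates; if the samples were not separate animals, p-values measure technical spread. Replicates differed by more than sampling noise (chi-square per degree of freedom 52.8 for p53+/+ and 77.3 for p53-/-).

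Counts were scaled by TMM and filtered by filterByExpr in edgeR 4.0.16 (R 4.3.3) and tested with the quasi-likelihood test, two-sided, with Benjamini-Hochberg adjustment over 16094 genes (threshold 0.05). Standard errors are the log2 fold change divided by the square root of F. DESeq2 1.42.0 was an alternative. Genes with no more than 3 counts in either library of a genotype were given a bound in place of a fold change. Depth was 15005479 to 22173164 counts per library, and reads carried no molecular identifiers, so bounds cover counting error only. Lengths and coding sequences came from GENCODE M21, which holds 91.8% of the gene identifiers, and were aligned with Biopython 1.88. The tests were checked on simulated counts.

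The members and the lists were chosen with earlier results of these data known. Genes named are the members, Trp53, in each list the genes past the threshold or otherwise the 2 with the highest mean CPM, the nearest gene in pattern to each member but Saa2 and Retnlb, and others singled out after their values were seen. The alternatives tried were no scaling beyond library size, RLE or upper-quartile scaling, DESeq2, the likelihood ratio test of edgeR, no filter on counts, a minimum of 10 counts in every library, removal of antigen receptor segments (immunoglobulin and T cell receptor), each library left out in turn and, added after the data were seen, Rn18s-rs5 left out and edgeR's bias-adjusted quasi-likelihood fit.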

Additional observations from a re-analysis of the deposited data

How the results depend on the processing

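Of the members, Dmbt1 and Duoxa2 both passed the threshold with RLE and upper-quartile factors, DESeq2, the likelihood ratio test, no filter, the minimum of 10 counts, the antigen receptor segments left out, Rn18s-rs5 left out and the bias-adjusted fit. The number of members past it was 1 with library size only, 6 with DESeq2, and 8 with the likelihood ratio test and with no filter, and ran from 0 to 5 over the 4 fits that leave out a library. Over all genes, the counts higher and lower were 26 and 20 with library size only, 29 and 20 under upper-quartile scaling, 812 and 663 with DESeq2, 833 and 462 with the likelihood ratio test, 1433 and 761 with no filter, 24 and 18 with at least 10 counts in every library, and 110 and 68 with the bias-adjusted fit. With a library left out, they ran from 0 to 680 higher and from 0 to 344 lower, the 0 being without library 10, where 767 were higher and 434 lower at an unadjusted p under 0.05. The median log2 fold change of the members ran from 2.54 without library 9 to 4.09 without library 8. The log2 fold change reversed for Retnlb without library 7, in a range of -0.077 to 3.43 over the libraries left out, and for Il22ra1 without library 10, in a range of -0.72 to 0.069. The causes were not tested. No paired analysis was possible because the column names carry no replicate number of the labels. With 2 libraries a genotype, the spread rests on few values, and Saa2, Retnlb, Il22 and Duox1 had too few counts for a fold change to be read from them.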
